A study of Homo sapiens with 21 samples.

Results

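The circadian clock genes PER1, PER2, PER3, CRY1, CRY2, CLOCK, NR1D1, NR1D2, DBP and TEF were described across 21 RNA-seq libraries of BT-549 cells, an established triple-negative breast cancer (TNBC) line. The genes were taken by name, through the Ensembl identifiers of the count table, and all 10 were found among the 42339 genes listed. The libraries formed 7 groups of 3 cultures each. BT-549 cells without an shRNA were grown as attached 2D cultures in medium with fetal bovine serum, or as 3D mammospheres at passage 6 in MammoCult medium, so that medium and growth format changed together and cannot be told apart. Another group of 3D cells received GO-203 at 0.75 μM, a peptide inhibitor directed against the MUC1-C subunit. The other 12 libraries came from mammospheres of puromycin-selected lines carrying a doxycycline-inducible shRNA, tet-MUC1shRNA at passage 6 and tet-MYCshRNA at passage 8, each treated with 0.1% DMSO as vehicle or with 500 ng/ml doxycycline (DOX). For the tet-MUC1shRNA line the DOX treatment lasted 10 days. Each line carried a single shRNA sequence, no DOX-treated line without a targeting shRNA was among the samples used here, and DOX itself cannot be told apart from the silencing. The time of day of harvest and any synchronisation of the cultures were not given in the sources used here, so that a change in mean level and a shift of a rhythm cannot be told apart in these data.

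The mammalian clock is a transcriptional feedback loop. CLOCK with its partner BMAL1 binds E-box sequences and activates the PER and CRY genes, whose proteins return to the nucleus and repress that activation. A second loop runs through NR1D1 and NR1D2 (REV-ERBα and REV-ERBβ), nuclear receptors that repress BMAL1, while the ROR receptors activate it. DBP and TEF, together with HLF, are PAR bZIP transcription factors that carry the rhythm to output genes through D-box sequences, and NFIL3 is a repressor at the same sites. Glucocorticoids and serum act on peripheral clocks partly by inducing PER1.

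Libraries held 38026597 to 99751717 counts, and in no replicate pair did the counts agree within sampling noise (chi-square over its degrees of freedom 4.36 to 52.8). The library of replicate 1 of the DOX-treated tet-MYCshRNA cells stood apart. Its genes deviated from the mean of the other libraries of its group by 0.214 on the log2 scale on average (0.0566 to 0.167 for every other library). The deviation ran with GC content (Spearman's rho = -0.81 across 10318 genes, a description within 1 library, against -0.60 to 0.71 in the others). Calls on MYC silencing that changed when this library was left out are given both ways. Genes with no value in the table were the same within a block of libraries, and the block of the GO-203-treated cells (7587 genes) was not that of their 3D controls (6498 genes). The targeted genes followed the labels, with levels in CPM (normalized counts relative to library size). MUC1 had 83.1 to 101 CPM in vehicle-treated and 19.7 to 23.3 CPM in DOX-treated tet-MUC1shRNA cells, and MYC had 386 to 439 and 244 to 297 CPM in the tet-MYCshRNA pair. The mesenchymal-like line was checked by VIM (1075 to 2485 CPM) and CD44 (598 to 1611 CPM), while ESR1, PGR, EPCAM and CDH1 stayed at or below 1.51 CPM in every library.

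Levels below are in CPM, scaled by edgeR's TMM factors over the 21 libraries, and positions are those of GENCODE release 44 on GRCh38. PER1 (ENSG00000179094.16, chr17:8140472-8156506, minus strand), a repressor of CLOCK-BMAL1 that is also induced acutely by hormones and serum, was low in 2D cells at 12.1, 14.2 and 11.4 CPM. It was counted at 192, 178 and 162 CPM in 3D cells and at 166, 175 and 170 CPM in GO-203-treated 3D cells. Every mammosphere library was therefore above every 2D library. The vehicle-treated tet-MUC1shRNA cells had 242, 239 and 196 CPM, and the DOX-treated cells of that line had 116, 122 and 117 CPM, with no overlap. In the tet-MYCshRNA line the vehicle-treated libraries had 110, 100.0 and 100.0 CPM and the DOX-treated libraries 87.6, 119 and 112 CPM, which overlapped. The lowest of these DOX values came from replicate 1, the library that stood apart. In the order of group means, PER1 fell from 226 CPM in vehicle-treated tet-MUC1shRNA cells to 12.6 CPM in 2D cells, a ratio of 17.9, and 3 of the 6 neighbouring pairs in that order overlapped.

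PER3 (ENSG00000049246.15, chr1:7784291-7845177, plus strand), a paralogue whose loss has milder effects on the clock, had the reverse order. In 2D cells it was counted at 76.4, 82.3 and 86.3 CPM, and in 3D cells at 4.98, 4.74 and 5.22 CPM. GO-203-treated cells had 5.42, 5.48 and 6.23 CPM. Thus PER3 was high in attached cells and low in every mammosphere library. In the tet-MUC1shRNA line it rose from 9.87, 9.39 and 9.16 CPM with vehicle to 14.03, 15.3 and 16.2 CPM with DOX, without overlap. The tet-MYCshRNA libraries lay between 8.71 and 10.3 CPM in both states and overlapped. Exons of UTS2 and of an unnamed gene on the other strand cover 16.6% of the exon bases of PER3, and the group means of UTS2 were at most 0.147 CPM. PER2 (ENSG00000132326.12, chr2:238244044-238290102, minus strand), a core repressor of the loop, varied least of the PER genes, from a group mean of 5.86 ± 0.40 CPM (SD, n = 3) in vehicle-treated tet-MUC1shRNA cells to 9.28 ± 1.59 CPM in vehicle-treated tet-MYCshRNA cells, and 5 of its 6 neighbouring pairs of groups overlapped.

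The sequences before the RefSeq starts of PER1, PER3 and NR1D2 are shown because these genes had the widest ranges of group means, and because each holds a clock motif. Capitals mark matches to the E-box CACGTG or to the D-box type motif TTANGTAA, which were searched on both strands together with the E-box variant CACGTT and the ROR/REV-ERB element. CACGTG and CACGTT share 5 letters but cannot match at the same position of a strand. The strands are those of the genes, 5′ to 3′, in RefSeq's GRCh38.p14. The PER1 stretch, chr17:8152436-8152654 on the minus strand, lies before a RefSeq start inside the gene's span and leaves out 31 exonic bases next to that start. The PER3 stretch, chr1:7784041-7784290 on the plus strand, ends 1 base before the first base of the gene. The NR1D2 stretch, chr3:23945871-23946120 on the plus strand, lies before the downstream of its RefSeq starts, inside the gene's span and outside its annotated exons.
PER1: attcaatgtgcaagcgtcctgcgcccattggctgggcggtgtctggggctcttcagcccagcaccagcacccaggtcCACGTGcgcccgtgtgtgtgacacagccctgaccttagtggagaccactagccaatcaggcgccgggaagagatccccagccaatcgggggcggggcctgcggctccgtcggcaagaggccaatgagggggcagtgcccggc
PER3: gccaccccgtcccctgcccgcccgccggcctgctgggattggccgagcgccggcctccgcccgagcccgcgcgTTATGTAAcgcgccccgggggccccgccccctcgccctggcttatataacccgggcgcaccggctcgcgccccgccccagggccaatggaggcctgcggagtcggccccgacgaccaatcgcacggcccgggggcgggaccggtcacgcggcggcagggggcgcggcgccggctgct
NR1D2: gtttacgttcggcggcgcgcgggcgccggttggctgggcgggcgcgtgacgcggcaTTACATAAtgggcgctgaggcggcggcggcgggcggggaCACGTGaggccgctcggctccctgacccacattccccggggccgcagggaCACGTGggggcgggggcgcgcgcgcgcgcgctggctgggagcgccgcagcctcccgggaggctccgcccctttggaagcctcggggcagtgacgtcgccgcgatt
In windows from 250 bases before to 50 bases after a start, CACGTG was present in 3 of the 10 genes (PER1, NR1D2 and TEF) and in 8.77% of 27305 genes with such a window. CACGTT was present in 5 of the 10 (PER2, CRY1, CRY2, CLOCK and NR1D1) and in 6.44% of all. TTANGTAA was present in 3 of the 10 (PER2, PER3 and NR1D2) and in 2.71% of all. The ROR/REV-ERB element was in 0 of the 10 and in 0.201% of all. NR1D2 held CACGTG 155 and 105 bases before its downstream start, and PER1 held it 173 bases before its start. DBP held none of the 4 motifs in this window.

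CRY1 and CRY2 encode the cryptochromes, the partners of the PER proteins and the main repressors of CLOCK-BMAL1. CRY1 (ENSG00000008405.12, chr12:106991364-107093549, minus strand) was lowest in 2D cells at 14.5 ± 0.27 CPM (SD, n = 3) and highest in vehicle-treated tet-MYCshRNA cells at 36.4 ± 0.70 CPM. The other 5 groups lay between 26.1 and 29.5 CPM, and each overlapped its neighbour in the order. CRY2 (ENSG00000121671.12, chr11:45847118-45883248, plus strand) was also lowest in 2D cells, at 5.01, 5.18 and 4.92 CPM, and reached 7.45, 6.77 and 6.59 CPM in 3D cells. It was highest in DOX-treated tet-MYCshRNA cells at 13.3, 13.2 and 13.6 CPM, where the vehicle-treated libraries of the same line had 6.43, 6.33 and 6.60 CPM. The DOX-treated and vehicle-treated libraries of the tet-MUC1shRNA line overlapped, at 9.64 to 10.5 CPM and 9.93 to 10.4 CPM. CLOCK (ENSG00000134852.15, chr4:55427903-55546909, minus strand), the activator of the loop, varied least of the 10 genes with a ratio of 1.52 between its highest and lowest group means. It had 184, 159 and 166 CPM in 2D cells and 112, 117 and 112 CPM in 3D cells, and the 4 lowest groups overlapped their neighbours at means of 111 to 116 CPM.

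The REV-ERB genes moved apart between 2D and 3D cells. NR1D1 (ENSG00000126368.6, chr17:40092793-40100589, minus strand) had 10.5, 10.1 and 9.48 CPM in 2D cells and 20.9, 19.4 and 20.1 CPM in 3D cells. GO-203-treated 3D cells had 15.8, 14.02 and 16.2 CPM, below all 3 controls. In the tet-MUC1shRNA line NR1D1 was at 43.0, 43.1 and 32.7 CPM with vehicle and at 19.0, 20.2 and 19.3 CPM with DOX. The vehicle-treated libraries of this line were the highest of the 21. The tet-MYCshRNA libraries had 16.2, 14.8 and 14.3 CPM with vehicle and 7.74, 14.04 and 12.7 CPM with DOX, the 7.74 being replicate 1. Exons of THRA on the other strand cover 18.0% of the exon bases of NR1D1. THRA, which encodes thyroid hormone receptor α, had group means of 10.5 to 40.6 CPM. The libraries were stranded but the strand setting of the counting was not given in the sources used here, and the part of THRA in the NR1D1 values was not tested.

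NR1D2 (ENSG00000174738.13, chr3:23945286-23980617, plus strand) was high in 2D cells at 123, 117 and 125 CPM and low in 3D cells at 21.2, 21.1 and 22.7 CPM. GO-203-treated cells had 24.6, 22.3 and 24.9 CPM, of which the 22.3 fell below the highest control. The tet-MUC1shRNA cells had 42.0, 45.9 and 43.0 CPM with vehicle and 53.2, 54.6 and 53.1 CPM with DOX. The tet-MYCshRNA cells went from 17.4, 18.5 and 18.6 CPM with vehicle to 31.7, 26.8 and 26.8 CPM with DOX. In both tet lines the DOX-treated libraries were thus above all vehicle-treated ones, and 5 of the 6 neighbouring pairs of groups were apart.

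The PAR bZIP genes were expressed at lower levels. DBP (ENSG00000105516.11, chr19:48630030-48637379, minus strand), a direct CLOCK-BMAL1 target often used as a clock output marker, had 4.48, 5.16 and 5.16 CPM in 2D cells and 2.18, 2.75 and 2.29 CPM in 3D cells. It fell in the tet-MUC1shRNA line from 6.16, 4.82 and 4.98 CPM with vehicle to 1.73, 2.03 and 2.02 CPM with DOX. In the tet-MYCshRNA line it had 1.13, 1.31 and 1.11 CPM with vehicle and 1.21, 2.13 and 2.35 CPM with DOX, and the groups overlapped through the 1.21 CPM of replicate 1. These CPM rest on 60 to 302 counts per library. TEF (ENSG00000167074.15, chr22:41367333-41399326, plus strand), a paralogue of DBP, had 10.8, 14.7 and 12.7 CPM in 2D cells and 3.69, 3.28 and 3.08 CPM in 3D cells. The tet-MUC1shRNA cells had 6.79, 6.73 and 6.18 CPM with vehicle and 3.68, 3.27 and 3.13 CPM with DOX. In the tet-MYCshRNA cells the direction was the opposite, from 1.94, 2.44 and 1.67 CPM with vehicle to 3.89, 4.56 and 4.28 CPM with DOX. Exons of SPHK2 cover 10.2% of the exon bases of DBP on the other strand, and SPHK2 had group means of 4.55 to 6.78 CPM.

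**Figure D1:**
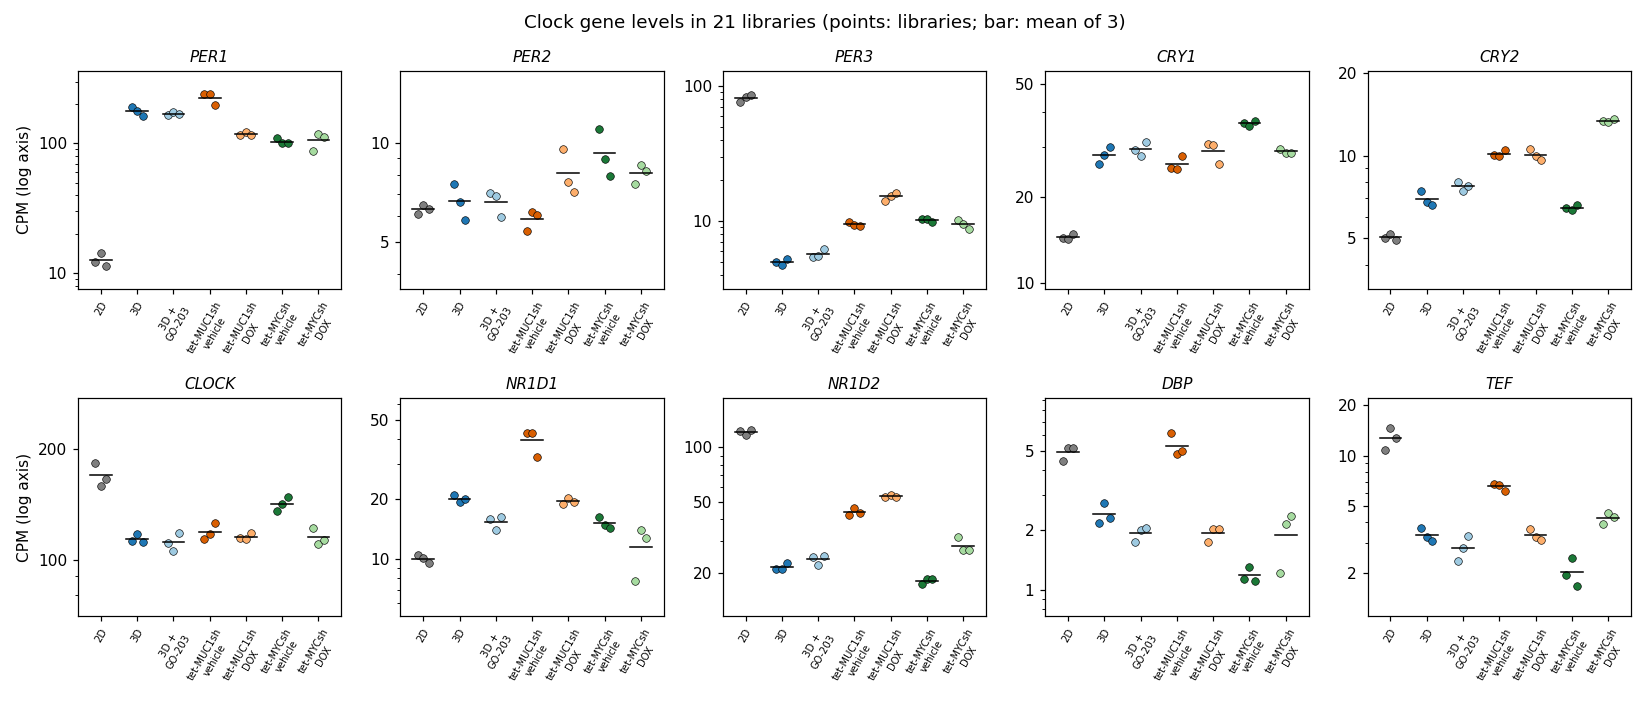
Levels of the 10 clock genes in CPM (log axis) for each of the 21 libraries, with 1 panel per gene, 1 point per library and a bar at the mean of 3. The 2D libraries lie below all others for PER1 (11.4 to 14.2 CPM) and above all others for PER3 (76.4 to 86.3 CPM) and NR1D2 (117 to 125 CPM).

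The first comparison asked which clock genes differ between mammospheres and attached cells. PER1 was upregulated 14.1-fold in 3D vs. 2D cells, and PER3 was downregulated 16.4-fold. NR1D2 and TEF were also downregulated, by 5.63-fold and 3.82-fold, whereas NR1D1 and CRY1 were upregulated by 2.00-fold and 1.93-fold. In bulk RNA, fewer cells with a transcript and less of it per cell cannot be told apart. Differences were tested by edgeR's quasi-likelihood test across all genes with Benjamini-Hochberg adjustment, and a gene passed at an adjusted p below 0.1. Of the 10 clock genes, 9 passed (4 higher, 5 lower), against 63.7% of the 19190 genes tested (32% higher, 31.7% lower). With an absolute log2 fold change above 1.5 as a further condition, 4 passed (PER1 higher, PER3, NR1D2 and TEF lower), against 16.2% of all genes (6.9% higher, 9.29% lower). The groups of 3 did not overlap for 9 of the 10 genes, and for 64.3% of all.

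On the log2 scale, PER1 changed by 3.81 (standard error 0.09, edgeR adjusted p = 2.34e-15) and PER3 by -4.04 (standard error 0.08, edgeR adjusted p = 2.34e-16). NR1D2 changed by -2.49 (standard error 0.06, edgeR adjusted p = 6.98e-15) and NR1D1 by 1.0 (standard error 0.09, edgeR adjusted p = 4.37e-08), so that the paralogues of both pairs went in opposite directions. DBP changed by -1.04 and TEF by -1.93, with edgeR adjusted p of 3.59e-05 and 3.89e-09. CRY1 rose by 0.95, CRY2 by 0.45 and CLOCK changed by -0.58, with edgeR adjusted p of 2.42e-08, 0.00493 and 7.08e-07. PER2 did not pass, at 0.07 (standard error 0.13, edgeR adjusted p = 0.672). The median of the 10 log2 fold changes was -0.26, beside -0.01 for all genes tested. THRA, on the strand opposite to NR1D1, had a log2 fold change of 1.62 (edgeR adjusted p = 1.7e-10).

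The second comparison asked what changes in mammospheres when MUC1 is silenced. PER1 fell to 0.532 of its vehicle level, NR1D1 to 0.502, TEF to 0.521 and DBP to 0.369, while PER3 rose 1.63-fold, PER2 1.40-fold, NR1D2 1.25-fold and CRY1 1.14-fold. Thus 8 of the 10 genes passed edgeR's test (4 higher, 4 lower), against 62.2% of 19220 genes (30.7% higher, 31.6% lower), and none reached an absolute log2 fold change of 1.5, against 8.82% of all genes past both thresholds. DBP changed most, by -1.44 on the log2 scale (standard error 0.16, edgeR adjusted p = 1.08e-07). NR1D1 changed by -1.0 (standard error 0.09, edgeR adjusted p = 3e-09), TEF by -0.94 (standard error 0.13, edgeR adjusted p = 2.1e-06) and PER1 by -0.91 (standard error 0.06, edgeR adjusted p = 6.57e-11). The repressor paralogue PER3 changed by 0.71 (standard error 0.09, edgeR adjusted p = 7.15e-07), PER2 by 0.49 (edgeR adjusted p = 0.0018) and NR1D2 by 0.32 (edgeR adjusted p = 3.33e-05). CRY1, at 0.18 (edgeR adjusted p = 0.03), lost its call without replicate 2 of the vehicle-treated cells and without replicate 1 or 2 of the DOX-treated cells, at 0.15 to 0.16. CRY2 (0.01, edgeR adjusted p = 0.919) and CLOCK (-0.02, edgeR adjusted p = 0.757) did not pass.

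Non-overlapping groups were found for 7 of the 10 genes, and for 62.8% of all. The median log2 fold change of the 10 genes was -0.0034, beside 0.02 for all genes. Scaling by library size alone in place of TMM factors moved the median of all genes by 0.17, and with that scaling all 10 genes passed (6 higher, 4 lower), CRY2 at 0.18 and CLOCK at 0.15. The share of all genes that passed with that scaling was not counted, so this count has no background beside it. THRA had a log2 fold change of -1.66 (edgeR adjusted p = 1.86e-14) in this comparison, in the same direction as NR1D1.

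The third comparison asked how 3D cells respond to GO-203. NR1D1 was 0.780 of its level in the control 3D cells, and the changes of the other clock genes were within 0.30 on the log2 scale. edgeR's test was passed by 2 of the 10 genes (1 higher, 1 lower), against 24.1% of 18488 genes (11.1% higher, 12.9% lower), and no clock gene passed with an absolute log2 fold change above 1.5, against 0.757% of all genes. NR1D1 changed by -0.36 (standard error 0.08, edgeR adjusted p = 0.00287), and THRA on the other strand was at 0.08 (edgeR adjusted p = 0.507). NR1D2 changed by 0.18 (standard error 0.07, edgeR adjusted p = 0.0946), and this call was lost with DESeq2, with RLE factors, without a filter, in a joint fit of the 21 libraries, and without any of 4 libraries, namely replicates 1 and 2 of the 3D cells and replicates 1 and 3 of the treated cells. PER1, at -0.03 (edgeR adjusted p = 0.803), PER3, at 0.23 (edgeR adjusted p = 0.26), and DBP, at -0.29 (edgeR adjusted p = 0.359), did not pass. The others that did not pass were CRY2 at 0.19, CRY1 at 0.10, PER2 at 0.03, CLOCK at -0.0013 and TEF at -0.21 (edgeR adjusted p = 0.299, 0.359, 0.92, 0.993 and 0.487). Groups did not overlap for 5 of the 10 genes (PER3, CRY2, NR1D1, NR1D2 and DBP) when scaled over the 6 libraries, and for 33.7% of all genes, although NR1D2 overlapped on the scale of the 21 libraries. The median of the 10 log2 fold changes was 0.01, beside 0.02 for all genes. The 3D libraries served as controls here and as the treated side of the first comparison, so the values of these comparisons are not independent.

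The fourth comparison asked what changes when MYC is silenced. TEF was upregulated 2.06-fold and CRY2 2.04-fold, NR1D2 rose 1.54-fold, and CRY1 and CLOCK fell to 0.785 and 0.802 of their vehicle levels. PER1, PER2 and PER3 did not pass, with log2 fold changes of 0.02, -0.22 and -0.12 (edgeR adjusted p = 0.904, 0.209 and 0.378). PER2 passed without replicate 3 of the vehicle-treated cells, at -0.34 (edgeR adjusted p = 0.0823), and its values over the 6 fits that lacked 1 library ran from -0.34 to -0.09. In all, 7 of the 10 genes passed edgeR's test (4 higher, 3 lower), against 58.5% of 19951 genes (30.3% higher, 28.1% lower), and none with an absolute log2 fold change above 1.5, against 10.5% of all genes. TEF changed by 1.04 (standard error 0.18, edgeR adjusted p = 0.000553), CRY2 by 1.03 (standard error 0.10, edgeR adjusted p = 1.03e-05) and NR1D2 by 0.63 (standard error 0.10, edgeR adjusted p = 0.000335). CRY1 changed by -0.35 (edgeR adjusted p = 0.00259) and CLOCK by -0.32 (edgeR adjusted p = 0.00233). Groups of 3 did not overlap for 6 of the 10 genes, and for 59.6% of all, and the median of the 10 log2 fold changes was -0.05, beside 0.01 for all genes.

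NR1D1, DBP and PER1 moved with the libraries that were included. NR1D1 changed by -0.41 (standard error 0.18, edgeR adjusted p = 0.0856), and by -0.20 (edgeR adjusted p = 0.115) without replicate 1 of the DOX-treated cells, the library that stood apart. Its call was also lost without any 1 of the 3 vehicle-treated libraries or without replicate 3 of the DOX-treated cells, at -0.48 to -0.37. DBP changed by 0.66 (standard error 0.26, edgeR adjusted p = 0.0525) with that library and by 0.89 (edgeR adjusted p = 0.00306) without it, and its call was lost when replicate 1 or 3 of the vehicle-treated or replicate 2 or 3 of the DOX-treated cells was left out, at 0.48 to 0.62. PER1 passed without the library that stood apart, at 0.13 (edgeR adjusted p = 0.0844). CRY2, TEF, NR1D2, CRY1 and CLOCK kept their direction and passed without it, at 1.03, 1.10, 0.54, -0.37 and -0.36. THRA had a log2 fold change of 0.81 (edgeR adjusted p = 0.000291), the opposite direction to NR1D1.

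**Figure D2:**
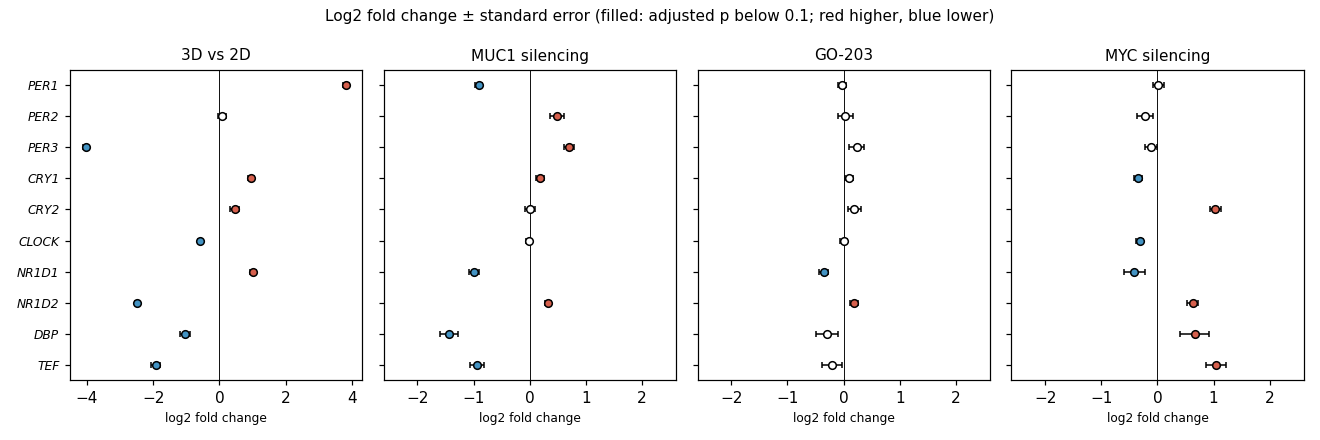
Log2 fold changes of the 10 clock genes with standard errors, 1 panel for each comparison, with filled points for an adjusted p below 0.1 in edgeR's test and open points for the rest. The horizontal axis of the first panel is wider than that of the other 3, and 9, 8, 2 and 7 points are filled from left to right.

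Whether MUC1 and MYC silencing act differently on the clock genes was tested as a difference of the log2 fold changes over the 12 libraries of the tet lines, which share no library between them. The passages of the lines differed, so line, passage and shRNA cannot be told apart. DBP and TEF fell on MUC1 silencing and were higher on MYC silencing, with differences of -2.12 (standard error 0.30, edgeR adjusted p = 1.11e-05) and -2.0 (standard error 0.21, edgeR adjusted p = 3.68e-07). The vehicle-treated lines already differed, with mean DBP of 5.32 CPM in tet-MUC1shRNA and 1.18 CPM in tet-MYCshRNA cells. With DOX these means were 1.93 and 1.90 CPM. In the same order, mean TEF was 6.56 and 2.02 CPM with vehicle and 3.36 and 4.24 CPM with DOX. CRY2 rose on MYC silencing and was at 0.01 on MUC1 silencing, a difference of -1.03 (standard error 0.12, edgeR adjusted p = 1.7e-06). PER1 differed by -0.94 (edgeR adjusted p = 1.44e-05) and PER3 by 0.81 (edgeR adjusted p = 6.81e-05). All 10 genes passed this test, against 52.9% of 21585 genes, and 6 of them had opposite signs in the comparisons, against 30.6% of all genes. The 6 were PER1, PER2, PER3, CRY1, DBP and TEF, but the PER1 sign on MYC silencing turned with scaling by library size alone, to -0.0090, and without a low-count filter, to -0.016. The changes of PER1, PER2 and PER3 on MYC silencing did not pass. Among the genes with the same sign in both, CRY2 and CLOCK turned sign on MUC1 silencing under other settings. CRY2 was at -0.010 with all 21 libraries in one fit, and CLOCK at 0.15 with library size alone. With scaling by library size alone NR1D1 and NR1D2 no longer passed the test of the difference, leaving 8 of the 10, and without a low-count filter NR1D2 no longer passed (-0.25, edgeR adjusted p = 0.146), leaving 9.

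**Figure D3:**
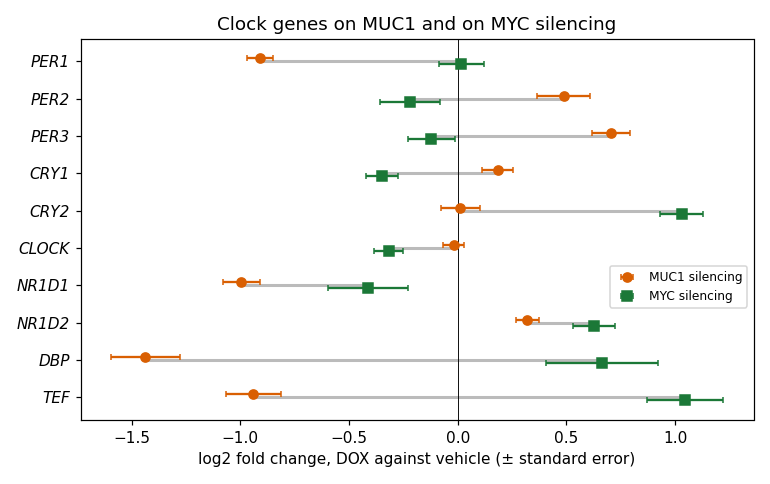
Log2 fold changes of the clock genes (DOX against vehicle) on MUC1 silencing (orange circles) and on MYC silencing (green squares), with standard errors and a grey line joining the values of a gene. DBP (-1.44 and 0.66) and TEF (-0.94 and 1.04) are the widest pairs, and NR1D2 lies to the right of zero in both lines.

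MUC1 silencing and GO-203 were compared in the same way, over 12 libraries. The log2 fold changes of PER1, NR1D1, DBP and TEF were lower on silencing than with GO-203, where NR1D1 alone of these 4 passed, with differences of -0.88, -0.64, -1.15 and -0.73 (edgeR adjusted p = 3.83e-08, 0.000118, 0.000382 and 0.00617). PER3 and PER2 had differences of 0.48 and 0.46 (edgeR adjusted p = 0.00802 and 0.0476). Of the 10 genes 6 passed, against 44.9% of 20829 genes. The PER2 call was lost without replicate 1 of the 3D cells, replicate 3 of the GO-203-treated cells, or replicate 1 of either tet-MUC1shRNA group, at 0.33 to 0.41. CRY1, CRY2, CLOCK and NR1D2 did not pass. Their differences were 0.09 (standard error 0.10), -0.17 (standard error 0.13), -0.01 (standard error 0.07) and 0.15 (standard error 0.08). NR1D2 passed with scaling by library size alone, at 0.30 (edgeR adjusted p = 0.00411), and with at least 10 counts in every library, at 0.20 (edgeR adjusted p = 0.0376). CRY1 passed with library size alone, at 0.24 (edgeR adjusted p = 0.0467).

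Levels of paralogues, and of CLOCK and its partner BMAL1, were compared per exon length. They were expressed as RPKM (CPM per kilobase) over the exons of GENCODE release 44. This is a description in each library, with no test. PER1 was below PER3 in 2D cells at a ratio of 0.179 ± 0.024 (SD, n = 3) and above it in 3D cells at 41.5 ± 4.73. The ratio fell from 27.6 ± 2.47 with vehicle to 9.06 ± 0.65 with DOX in tet-MUC1shRNA cells, and was 11.8 ± 0.53 and 13.1 ± 2.69 in the tet-MYCshRNA pair, where the mean with DOX was 14.7 without replicate 1. NR1D1 to NR1D2 went from 0.182 ± 0.013 in 2D cells to 2.05 ± 0.12 in 3D cells. The mean of this ratio went from 2.00 to 0.801 on MUC1 silencing, below equal levels. On MYC silencing it went from 1.84 to 0.912, but replicate 1 of the DOX-treated cells, the library that stood apart, had 0.539 and the other two had 1.04 and 1.15, with a mean of 1.10 that stayed above equal levels. The part of THRA in the NR1D1 values of these ratios was not tested. CRY1 to CRY2 stood at 7.32 ± 0.028 in vehicle-treated and at 2.81 ± 0.073 in DOX-treated tet-MYCshRNA cells, the highest and the lowest group means of the 7. CLOCK to BMAL1 was 5.50 ± 0.69 in 2D and 2.72 ± 0.23 in 3D cells, and fell with DOX from 5.95 ± 0.45 to 2.80 ± 0.15 in the tet-MUC1shRNA line and from 4.08 ± 0.42 to 1.94 ± 0.13 in the tet-MYCshRNA line.

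**Figure D4:**
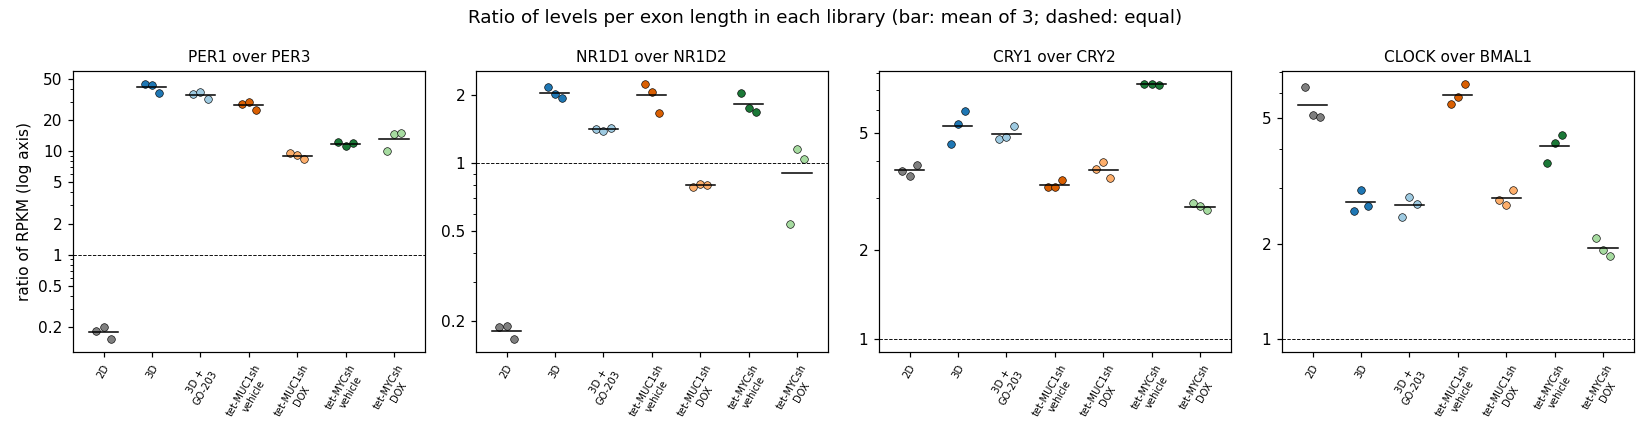
Ratios of RPKM within each library (log axis) for PER1 over PER3, NR1D1 over NR1D2, CRY1 over CRY2 and CLOCK over BMAL1, with 1 point per library, a bar at the mean of 3 and a dashed line at equal levels. The 2D libraries lie below equality in the first panel (0.154 to 0.201) and in the second (0.167 to 0.191).

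All 17 other clock genes described here could be tested in 3D vs. 2D cells, and 9 rose and 3 fell, where 32% of all genes tested were higher and 31.7% lower. BMAL1, BMAL2 and NPAS2 differed among themselves. BMAL1 rose by 0.43 on the log2 scale (edgeR adjusted p = 0.00017), its paralogue BMAL2 changed by -0.78 (edgeR adjusted p = 7.19e-07), and NPAS2, a paralogue of CLOCK, had 0 to 8 counts in the 2D libraries and 61 to 84 in the 3D libraries. BHLHE40 and BHLHE41, repressors at E-boxes, rose by 1.07 and 1.31, and NFIL3 by 0.78 (edgeR adjusted p = 1.39e-10, 4.37e-06 and 7.57e-09). RORA, which activates BMAL1, rose by 2.03 (edgeR adjusted p = 2.41e-07), and RORB had 0 to 8 counts in 2D and 26 to 50 in 3D cells. HLF, the other PAR bZIP gene, fell as DBP and TEF did, from 491 to 664 counts in 2D cells to 4 to 12 in 3D cells, which was -6.36 on the log2 scale (standard error 0.21, edgeR adjusted p = 2.36e-13). CIART, a CLOCK-BMAL1 target and repressor, did not pass (-0.08, edgeR adjusted p = 0.547). The median over the 17 genes was 0.43.

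On MUC1 silencing 16 of these genes were tested, of which 6 rose and 8 fell (median -0.23), beside 30.7% and 31.6% of all genes. BMAL1 rose by 1.07 (standard error 0.07, edgeR adjusted p = 4.46e-11) and BMAL2 by 0.48, while BHLHE40, BHLHE41, NFIL3, RORA, NPAS2 and CIART changed by -1.25, -0.95, -1.0, -1.17, -0.70 and -0.60, each with an edgeR adjusted p of 0.000622 or less. RORB changed by 1.33 (edgeR adjusted p = 1.39e-05). HLF was too low to test here and with GO-203. On MYC silencing 17 were tested, and 10 rose and 3 fell (median 0.31), beside 30.3% and 28.1% of all genes. BMAL1 rose there too, by 0.75 (standard error 0.08, edgeR adjusted p = 3.48e-05), and NPAS2, RORA and RORB rose by 0.83, 1.23 and 2.24 (edgeR adjusted p = 0.00033, 1.93e-05 and 1.79e-08). BMAL2 and BHLHE41 changed by -1.09 and -0.81 (edgeR adjusted p = 9.18e-07 and 0.000303), NFIL3 by 0.31 (edgeR adjusted p = 0.00324) and CIART by 0.30 (edgeR adjusted p = 0.076), while BHLHE40 (0.06, edgeR adjusted p = 0.723) and HLF (0.70, edgeR adjusted p = 0.244) did not pass. Without replicate 1 of the DOX-treated cells BHLHE40 passed at 0.21 (edgeR adjusted p = 0.0188), so that 11 rose and 3 fell, and CIART was at 0.43 (edgeR adjusted p = 0.00198). With GO-203, 16 were tested and 5 passed, beside 24.1% of all genes, RORB and USP2 higher at 1.14 and 0.84, and BMAL2, BHLHE41 and TIMELESS lower at -0.56, -0.67 and -0.18 (edgeR adjusted p = 0.00899, 1.35e-08, 1.17e-06, 0.00348 and 0.0431). BMAL1 was at 0.04 (edgeR adjusted p = 0.804).

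**Figure D5:**
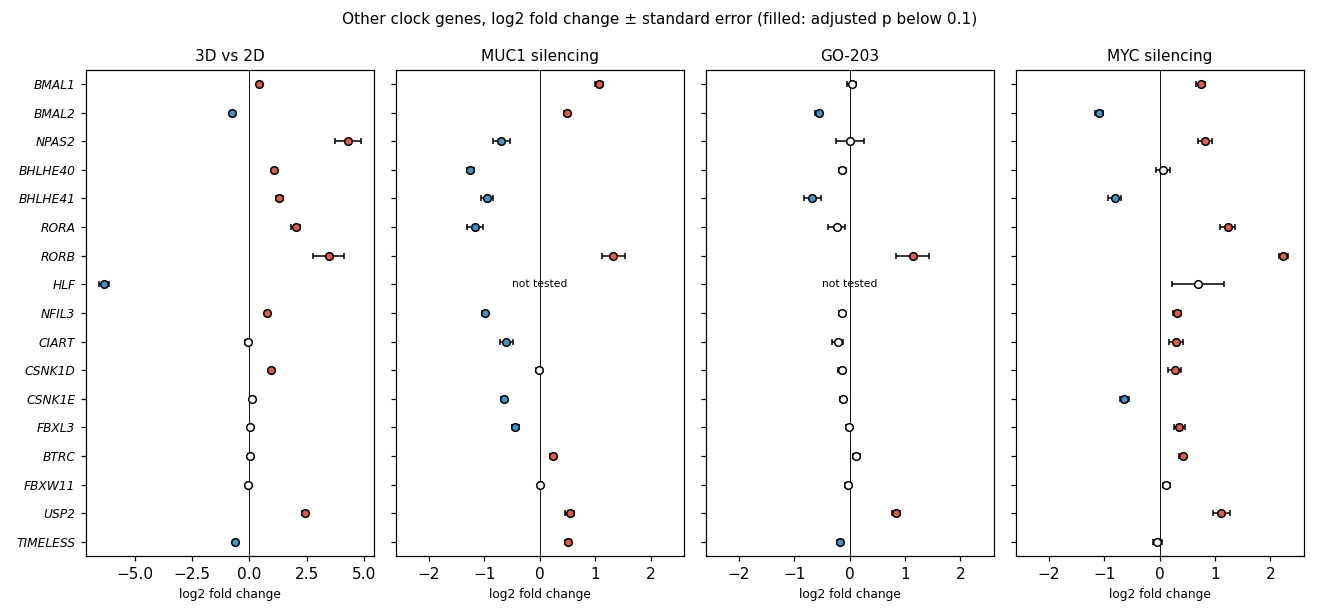
Log2 fold changes of 17 other clock genes with standard errors, 1 panel per comparison, with filled points for an adjusted p below 0.1 in edgeR's test. BMAL1 is filled and to the right of zero in every panel but GO-203, and BHLHE40, BHLHE41 and NFIL3 lie right in 3D vs. 2D cells and left on MUC1 silencing.

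Lists of glucocorticoid-induced and of immediate early genes were described beside the clock genes. Of 6 glucocorticoid-induced genes, 5 rose in 3D vs. 2D cells and none fell (FKBP5, TSC22D3, ZBTB16, KLF9 and DUSP1, with SGK1 at -0.09, edgeR adjusted p = 0.221), where 32% of all genes tested were higher. FKBP5, a co-chaperone of the glucocorticoid receptor, had 0 to 2 counts in the 2D libraries and 160698 to 227536 in the 3D libraries. TSC22D3, which encodes the glucocorticoid-induced leucine zipper protein GILZ, rose by 6.98 on the log2 scale (standard error 0.09, edgeR adjusted p = 7.91e-18). The summed level of the 6 genes was 101 to 107 CPM in 2D cells, against 4239 to 4425 CPM in 3D cells. Single genes carried these sums, since SGK1 had a mean of 74.7 CPM in 2D cells and FKBP5 of 3435 CPM in 3D cells. On MUC1 silencing 2 rose and 4 fell (FKBP5 at 0.14, SGK1 at 1.17 and TSC22D3 at -1.26, edgeR adjusted p = 0.0103, 2.56e-14 and 1.95e-13), beside 30.7% and 31.6% of all genes, and the sums were 3540 to 3679 CPM with vehicle and 3214 to 3508 CPM with DOX. On MYC silencing 5 rose and none fell (FKBP5 at 1.45, TSC22D3 at 1.18, edgeR adjusted p = 2.77e-08 and 2.23e-07), against 30.3% of all genes that were higher, and the sums went from 1791 to 1848 CPM with vehicle to 4894 to 5044 CPM with DOX. No call in this list changed without the library that stood apart. With GO-203, 5 rose and none fell (FKBP5 at 0.30, TSC22D3 at 0.41, edgeR adjusted p = 1.78e-05 and 2.64e-05), with sums of 4830 to 5512 CPM, and 11.1% of all genes were higher. The median log2 fold changes of the 6 genes were 5.85 in 3D vs. 2D cells, -0.18 on MUC1 silencing, 0.35 with GO-203 and 1.29 on MYC silencing. In the same order PER1 was at 3.81, -0.91, -0.03 and 0.02, and did not pass in the last 2. The part of glucocorticoid input in the PER1 values was not tested.

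Of 7 immediate early genes, which answer serum and growth factors, 6 rose in 3D vs. 2D cells and none fell, FOS by 2.71 and EGR1 by 2.65 (edgeR adjusted p = 8.38e-10 and 1.69e-14), beside 32% of all genes that were higher. It was the medium of the 2D cells that held fetal bovine serum, and the part of the medium in these changes was not tested. With GO-203, 5 rose and none fell, FOS by 1.18 and EGR1 by 0.75 (edgeR adjusted p = 1.9e-08 and 1.32e-08), beside 11.1% of all genes that were higher. On MUC1 silencing 3 rose and 2 fell, with FOS at 0.39 and EGR1 at -0.55 (edgeR adjusted p = 0.00264 and 4.21e-09), beside 30.7% and 31.6% of all genes. On MYC silencing 1 rose and 2 fell, with EGR1 at 0.47 and FOS at -0.03 (edgeR adjusted p = 0.00264 and 0.892), beside 30.3% and 28.1% of all genes. Without the library that stood apart 3 rose and 2 fell there, with JUNB at 0.55 (0.35 with it) and ATF3 at 0.23 (0.18 with it) now passing (edgeR adjusted p = 0.000208 and 0.0688), and FOS was at 0.10 (edgeR adjusted p = 0.5). Their summed level ran from 98.0 to 121 CPM in 2D cells and from 208 to 409 CPM in the mammosphere groups, and the median log2 fold changes were 1.42, 0.32, 0.57 and 0.18 in 3D vs. 2D cells, on MUC1 silencing, with GO-203 and on MYC silencing.

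The genes most like PER1, PER3 and NR1D2 in their pattern were taken by Pearson's r of log2(CPM + 1) over the 21 libraries, among 13601 genes. These libraries fall into 7 groups in which 2D cells stand far from the rest, so that r is a description of that spacing. For PER1 they were TSC22D3, SLCO4A1 and ABCA6, each at 0.98. For PER3 they were EYA4 at 0.99, PPM1H at 0.98 and ELOVL2 at 0.97, all high in 2D cells (96.4, 154 and 17.4 CPM) and at 0.98 to 2.88 CPM in 3D cells. For NR1D2 they were COL1A1, PLD1 and EFNB3, each at 0.97, of which COL1A1, a collagen chain, went from 1046 CPM in 2D cells to 58.0 CPM in 3D cells.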

How the data were processed

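Total RNA of 21 BT-549 cultures, 3 per group, was sequenced as TruSeq stranded paired-end mRNA libraries. The authors aligned reads to GRCh38 with STAR (2.7.3a in the submitters' processing notes) and deposited raw counts per gene from featureCounts. The annotation release, strand setting and handling of multi-mapped reads were not given in the sources used here. The labels do not say whether triplicates were separate experiments, so p-values measure the spread between these cultures. Genes without a value in a block of libraries were read as 0. Symbols (42252 of 42339 identifiers), positions and exon lengths came from GENCODE release 44, in which 36669 identifiers had the same version.

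In R 4.3.3, every comparison was fitted with its 6 libraries by edgeR 4.0.16 (filterByExpr, TMM factors, quasi-likelihood test, Benjamini-Hochberg adjustment over all genes tested). Differences between comparisons were interactions over 12 libraries. Thresholds were an adjusted p of 0.1 and, for large changes, an absolute log2 fold change of 1.5. Standard errors were the absolute log2 fold change over the square root of F. CPM and RPKM were scaled over 21 libraries. The fitting procedure was tested on simulated data, in which at least 96% of genes changed by a log2 of 1 were recovered. This share was not given for each comparison. It cannot be read as that of MYC silencing, where replicates spread most (edgeR's biological coefficient of variation 0.127). Alternatives were DESeq2 1.42.0, RLE factors, library size alone, no filter, a minimum of 10 counts per library, a joint fit of all 21, an adjusted p of 0.05, the replicate block, and each library left out. For the other lists and the ratios, leaving out the library that stood apart on MYC silencing was chosen after seeing the data. All 10 clock genes are named in each of the 4 comparisons. The clock genes and the other lists were chosen with earlier results of these data known. All 10 genes matched RefSeq's promoters (GRCh38.p14). One gene of the list of other clock genes is not reported here.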

Additional observations from a re-analysis of the deposited data

Results flagged for a closer look

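The effects of MUC1 and of MYC silencing differed for all 10 clock genes in the interaction test of edgeR over 12 libraries, where 52.9% of 21585 genes passed. The differences of the log2 fold changes (MUC1 minus MYC silencing) were -0.94 for PER1, 0.70 for PER2, 0.81 for PER3, 0.52 for CRY1 and -1.03 for CRY2. They were 0.29 for CLOCK, -0.60 for NR1D1, -0.32 for NR1D2, -2.12 for DBP and -2.0 for TEF. The vehicle-treated tet-MUC1shRNA and tet-MYCshRNA cells already differed in mean DBP (5.32 and 1.18 CPM) and TEF (6.56 and 2.02 CPM). With DOX the means were closer, at 1.93 and 1.90 CPM for DBP and 3.36 and 4.24 CPM for TEF. With scaling by library size alone NR1D1 (-0.39, edgeR adjusted p = 0.131) and NR1D2 (-0.12, edgeR adjusted p = 0.439) did not pass, and without a low-count filter NR1D2 did not (-0.25, edgeR adjusted p = 0.146). The edgeR adjusted p-values of the test as reported ran from 3.68e-07 (TEF) to 0.0322 (NR1D1). In 6 of the 10 genes the log2 fold changes had opposite signs. CRY2, CLOCK, NR1D1 and NR1D2 had the same sign in both, and for CRY2 and CLOCK the change on MUC1 silencing did not pass. Their signs on MUC1 silencing also turned under other settings, to -0.010 for CRY2 with all 21 libraries in one fit and to 0.15 for CLOCK with library size alone. Of the 6 with opposite signs, PER1, PER2 and PER3 did not pass on MYC silencing (edgeR adjusted p = 0.904, 0.209 and 0.378), and the sign of PER1 there turned under other settings. Without replicate 1 of the DOX-treated tet-MYCshRNA cells, the library that stood apart, the difference was -1.07 for PER1 (edgeR adjusted p = 5.03e-09) and -0.82 for NR1D1 (edgeR adjusted p = 4.23e-05).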

How the results depend on the processing

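The number of clock genes passing stayed within 1.5 times under every alternative run in every comparison except GO-203, where 2 genes passed and 1 passed with an adjusted p of 0.05, with DESeq2, with RLE factors, without a filter, and with all 21 libraries in one fit, and 1 to 2 passed when each library was left out. The signs that turned were those of values near 0 that had not passed. With library size alone, CLOCK was at 0.15 on MUC1 silencing, where it then passed (edgeR adjusted p = 0.0165), 0.0055 with GO-203 and 0.14 in the difference between them, and PER1 was at -0.0090 on MYC silencing. With at least 10 counts in every library, CLOCK was at 0.032, 0.0026 and 0.033 in the same order. With all 21 libraries in one fit, CRY2 was at -0.010 on MUC1 silencing and PER2 at -0.0036 with GO-203. Without a filter, PER1 was at -0.016 on MYC silencing and CLOCK at 0.0090 in the difference between MUC1 silencing and GO-203, where DESeq2 gave 0.0015 and RLE factors 0.0024. Leaving out each library gave ranges that cross 0 for CRY2 (-0.014 to 0.036) and CLOCK (-0.056 to 0.024) on MUC1 silencing, for PER1 (-0.10 to 0.030), PER2 (-0.070 to 0.12) and CLOCK (-0.035 to 0.028) with GO-203, for PER1 on MYC silencing (-0.074 to 0.13), and for CLOCK in the difference between MUC1 silencing and GO-203 (-0.043 to 0.020). On MYC silencing, leaving out 1 library lost NR1D1 in 5 of 6 fits (-0.48 to -0.20, and -0.58 in the other) and DBP in 4 (0.48 to 0.62, and 0.73 and 0.89 in the others). The cause was not tested. The mean correlation of same-numbered deviations was -0.06, 0.04, 0.15 and -0.23 in the 4 comparisons, and with GO-203 the values were 0.23, 0.04 and 0.18. With so few libraries, these values cannot settle whether same-numbered cultures were paired. With the replicate block 9, 8, 2 and 7 clock genes passed, as without it, and 10 and 6 in the differences. With an adjusted p of 0.05, 5 passed on MYC silencing. DBP had 60 to 302 counts per library, and the part of low counts in its spread was not tested.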
